A study of Mus musculus with 12 samples.

Results

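The TNF response of fibroblasts that lack both Rela and Nfkb2 was measured across the genes that these cells express. The comparison set 2 arrays of Rela-/-Nfkb2-/- mouse embryonic fibroblasts (MEFs) given TNF (10 ng/ml) for 6 h against 2 arrays of untreated Rela-/-Nfkb2-/- MEFs. A gene was a member of the comparison if a probe for it was above background (detection p-value under 0.05) on both arrays of either group, which held for 9209 of the 10031 features tested in the series, 8499 of them with a gene symbol. The series also holds 2 untreated and 2 TNF-treated arrays of WT MEFs and of Rela-/-Relb-/-Rel-/- MEFs, all 12 on Illumina MouseRef-8 v2.0 BeadChips. All cells were labelled as C57BL/6, and the methods describe immortalised fibroblast cultures. The sources used here do not say whether the arrays of a group were separate cultures, and the p-values therefore measure only the spread between arrays, which may be technical. They also name no second line of a genotype, so an effect of the deleted genes cannot be told apart from a property of the line. The same holds for fewer cells with a transcript and less of it in each cell, because RNA was pooled from the whole culture.

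TNF is a cytokine that activates NFκB, a family of dimeric transcription factors. In resting cells IκB proteins hold the RelA:p50 dimer in the cytoplasm, and TNF signalling degrades them within minutes. Nfkb2 encodes p100, the precursor of p52, and p100 binds and restrains RelB-containing dimers. Rela-/-Nfkb2-/- cells therefore lack the main TNF-induced dimer and an inhibitor of RelB, and the study used them to ask what TNF-induced RelB:p50 can do without RelA. Rela-/-Relb-/-Rel-/- cells lack all 3 family members with a transactivation domain and served as the NFκB-deficient control.

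The targeted genes were read before the response. The Rela probe gave log2 normalised signals of 10.80 and 10.28 on the untreated arrays and of 10.68 and 10.70 on the TNF arrays of Rela-/-Nfkb2-/- cells, while the 4 WT arrays lay between 12.60 and 13.22. The Nfkb2 probe gave 7.23 and 8.83 without TNF and 7.48 and 8.67 with it, against 8.83 and 8.64 in untreated WT cells. Both probes were above background on all 4 mutant arrays. Where the probes lie relative to the deleted exons was not determined, so neither signal checks a label. Of 18 fibroblast markers listed, 16 were members, and 1 rose (Thy1) and 2 fell (Pdgfrb and Twist1), with the calls of Thy1 and Twist1 lost in 3 and 9 of the 12 fits that leave out 1 array. Of the markers of other cells, 2 of 12 of leukocytes, 3 of 10 of endothelium, 3 of 10 of epithelium, 3 of 10 of muscle and 3 of 10 of neural cells were members. Among those, the endothelial marker Eng fell by 2.51 and the neural marker Nes rose by 1.21 on the log2 scale, though no neural marker was called without untreated replicate 1, TNF replicate 1 or TNF replicate 2. Each array of the series detected 11637 to 12599 probes. The raw signal at the 75th percentile was 495 and 616 on the untreated and 378 and 443 on the TNF arrays of Rela-/-Nfkb2-/- cells, so the TNF arrays were dimmer before normalisation. The SD of the difference between replicate arrays was 0.668 in the untreated and 0.456 in the TNF group on the log2 scale, against 0.270 and 0.303 in WT cells. In Rela-/-Relb-/-Rel-/- cells this SD was 0.464 without and 0.649 with TNF. The fit took 1 spread for each gene from all 12 arrays, so the SEs and p-values below do not carry this unequal spread.

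TNF changed genes in both directions. By limma with Benjamini-Hochberg adjustment, 799 members rose (8.68%) and 1158 fell (12.6%) at an adjusted p under 0.05, and over all features tested the shares were 8.03% and 11.6%. Among all members, including those above background in 1 group only, large falls outnumbered large rises. At least 2-fold changes were met by 348 rises and 696 falls, at least 4-fold changes by 59 and 188, and at least 8-fold changes by 17 and 54. The median change over all members was 0.00 on the log2 scale, with an SD of 0.77 and 5th and 95th percentiles of -1.34 and 1.00. Part of the excess of falls lay in genes that crossed the background level. Of the members, 8240 were above background on all 4 arrays, 489 on 3, 83 on both TNF arrays and no untreated array, and 397 on both untreated arrays and no TNF array. The corresponding switches numbered 67 and 165 in WT cells and 69 and 73 in Rela-/-Relb-/-Rel-/- cells. A gene seen in only 1 group had to differ, so these genes give no support of their own. Among the 8240 members above background throughout, 722 rose (8.76%) and 862 fell (10.5%). There, at least 2-fold changes were met by 295 rises and 449 falls, at least 4-fold changes by 39 and 78, and at least 8-fold changes by 11 and 19. The median log2 change was 0.91 for these rises and -1.03 for these falls. In that set both TNF arrays lay above both untreated arrays for 2283 members (27.7%) and below them for 2331 (28.3%). Risen members had a lower untreated signal (median 9.11) than fallen members (median 10.28), with 9.79 for the others. The untreated signal also enters the change that sorted them, so a gap in this direction follows in part from the sorting.

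**Figure D1:**
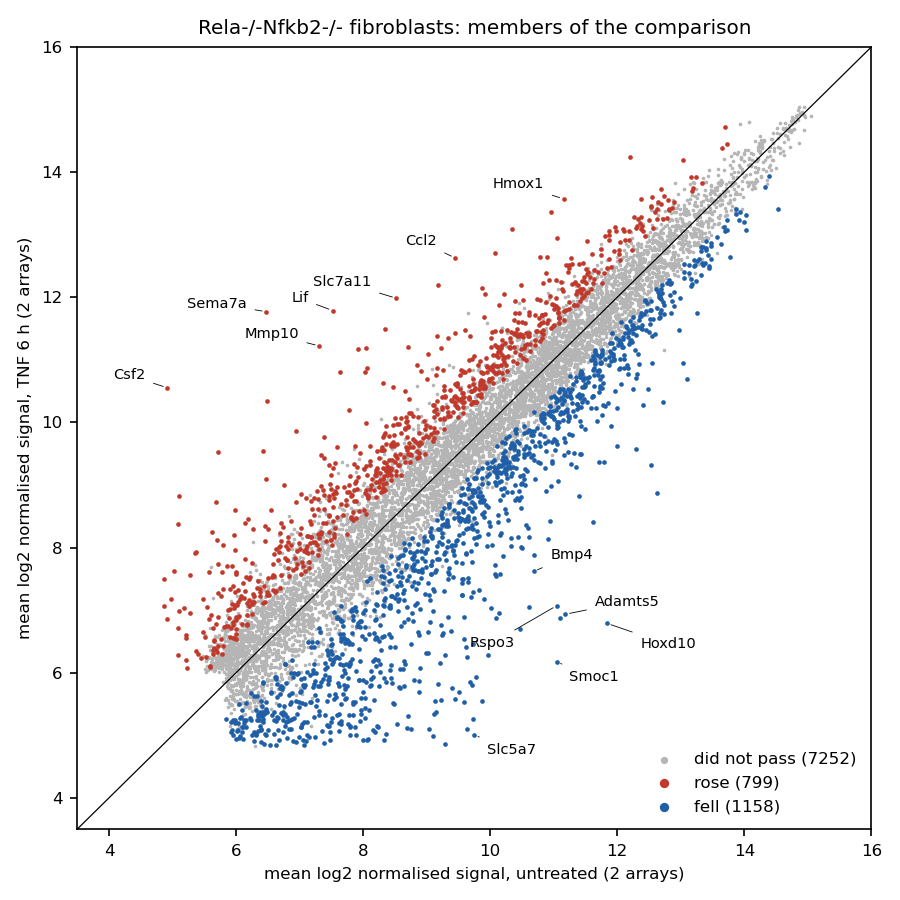
Mean log2 normalised signal of each member in TNF-treated (vertical axis) against untreated (horizontal axis) Rela-/-Nfkb2-/- cells, 2 arrays each. The 799 members that rose (red) lie above the diagonal and the 1158 that fell (blue) below it, with the blue points that reach the floor of the plot marking genes no longer above background after TNF.

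How many genes passed, and in which direction, moved with the scaling and with single arrays. Scaling every array to the same median in place of quantile normalisation moved the median change to -0.33 and left 206 rises and 1319 falls, so that 13.5% of the calls were rises instead of 40.8%. Leaving out TNF replicate 1 left 282 rises and 670 falls, and leaving out TNF replicate 2 left 432 and 595. Without untreated replicate 1 there were 629 rises and 701 falls, and without untreated replicate 2 there were 592 and 1178. Under a model that blocks on the replicate number inside each genotype, 1512 members rose and 1758 fell. Fitting the 4 arrays alone, with no spread borrowed from the other genotypes, gave 84 rises and 251 falls. Of the 166 genes named by rule that passed, 114 kept their call whichever of the 12 arrays was left out, and those that did not are marked where their values carry a result. Falls outnumbered rises in each of these fits. Scaling to the array median kept the calls of 136 of the 166, and among the genes described here Thy1, Tnfrsf12a, Tnfaip3, Gadd45b, Vcam1, Dusp6, Rars, Tgfb1, Ccne1 and Mcm4 lost theirs.

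**Figure D2:**
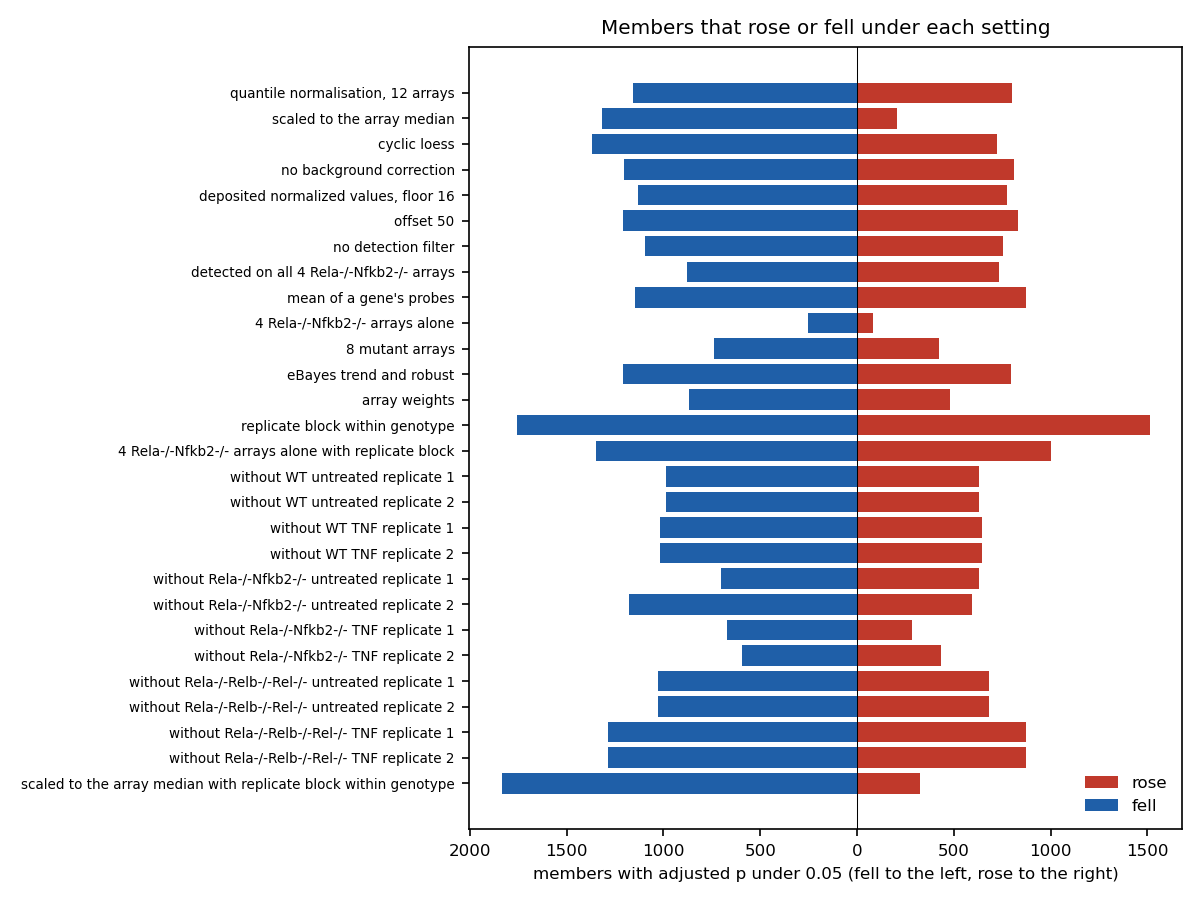
Members that rose (right, red) and fell (left, blue) at an adjusted p under 0.05 under each processing setting, with the count of members on the horizontal axis. Against the top bar (799 and 1158), the replicate block gives longer bars on both sides (1512 and 1758), the 4 arrays alone shorter bars on both sides (84 and 251), and scaling to the array median fewer rises and more falls (206 and 1319).

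The 4 largest rises are given here array by array. Sema7a, a membrane-anchored semaphorin that binds integrins, read 6.78 and 6.17 on the untreated arrays and 11.82 and 11.72 on the TNF arrays. The 2 groups were far apart and the TNF arrays nearly equal, a rise of 5.30 ± 0.24 (SE from the fit of 12 arrays, n = 2 arrays a group) on the log2 scale or 39.3-fold (limma, adjusted p = 6.86e-06). Csf2, the gene of GM-CSF, was not above background without TNF (4.93 and 4.91) and read 10.64 and 10.47 with it. It rose at least 27.4-fold (adjusted p = 1.13e-05), where the bound sets the TNF mean against the lowest signal above background on each untreated array. Lif, an interleukin-6 family cytokine, went from 7.57 and 7.47 to 12.11 and 11.46, a 19.2-fold rise (adjusted p = 2.96e-05). Mmp10, stromelysin-2, went from 7.68 and 6.94 to 11.41 and 11.03, a 15.1-fold rise (adjusted p = 0.000145). In none of these 4 genes did the groups overlap, which is no separate support because they were chosen for the size of their change.

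Rises further down the order included the following. Slc7a11, the cystine-glutamate exchanger that feeds glutathione synthesis, went from 9.13 and 7.92 to 11.98 and 11.98 (log2 change 3.46 ± 0.53, adjusted p = 0.0025). Its untreated arrays differed by more than 1 log2 unit but stayed well below both TNF arrays. Gch1, the first enzyme of tetrahydrobiopterin synthesis, rose 6.90-fold, from 8.20 and 7.85 to 10.84 and 10.78 (adjusted p = 2.96e-05). Hbegf, a ligand of the EGF receptor, rose 6.20-fold, from 10.18 and 9.96 to 12.74 and 12.66 (adjusted p = 4.05e-05). Pdgfb, the B chain of platelet-derived growth factor, rose by 3.14, Rgs16, which shortens G-protein signals, by 2.74, and Ptpn22, a tyrosine phosphatase best known in lymphocytes, by 2.63 on the log2 scale. Among genes above background with TNF only, Itga2, the collagen-binding integrin subunit, rose at least 8.29-fold, Serpinb2, a plasminogen activator inhibitor, at least 6.06-fold, and Gjb2, the gap junction protein connexin 26, at least 5.54-fold. The call for Gjb2 was lost without TNF replicate 1 (adjusted p = 0.0599) or TNF replicate 2 (adjusted p = 0.0645).

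**Figure D3:**
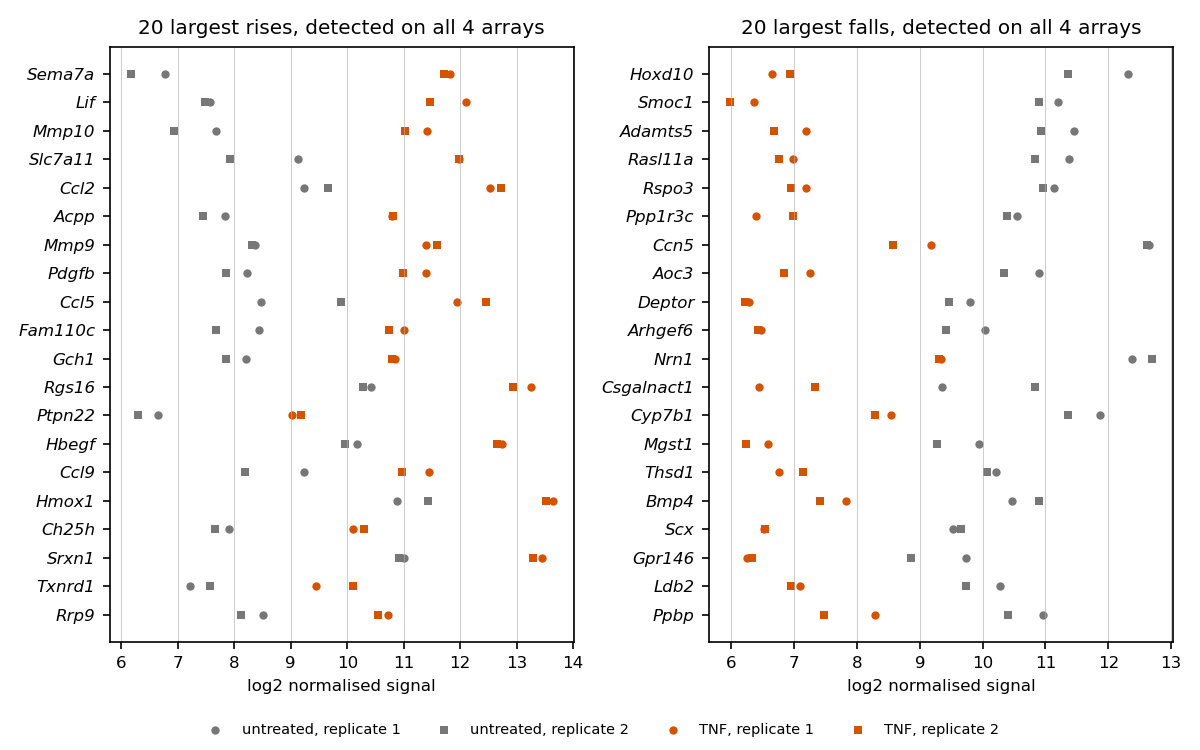
Log2 normalised signal on each Rela-/-Nfkb2-/- array for the 20 largest rises (left) and 20 largest falls (right) among members above background on all 4 arrays, grey without and orange with TNF, circles for replicate 1 and squares for replicate 2. In each of the 40 genes both orange points lie on one side of both grey points, which largely follows from choosing large changes that passed. Among all members above background on all 4 arrays, 27.7% lay fully above and 28.3% fully below.

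The promoters of risen genes were searched for the sites of NFκB and AP-1, 2 factor families that act downstream of the TNF receptor. The windows ran from 250 bases before to 50 bases after the start site and came from RefSeq (GRCm38.p6). Of the 30 largest rises, 23 genes had 27 windows. A κB consensus was found on either strand in 3 of the 27 (11.1%, in Ccl9, Gch1 and Gjb2), against 5.25% of the 9734 windows of all tested genes and 4.51% of the 32851 in the table. The AP-1 site TGANTCA was found in 8 of the 27 (29.6%), against 5.67% and 7.81%, but also in 6 of the 25 windows of the 30 largest falls (24%). The κB consensus was found in 0 of those 25. Counted by gene, the AP-1 site was found in 7 of 23 risen and 4 of 17 fallen genes with a window. The CArG box, the CCAAT box and the cell cycle element TTTGAA were also searched for. Windows of the rises held them in 0%, 25.9% and 22.2%. For the falls the shares were 0%, 36% and 20%, and for all tested genes 1.37%, 37.5% and 11.7%. A match is only a run of letters and says nothing of binding. The windows below, 5′ to 3′ on the gene's strand, were picked from those that hold a match, so they do not stand for the rises as a whole. Their genes are an inhibitor of NFκB (Nfkbia, described next and not among the 30 largest rises), a biosynthetic enzyme (Gch1), a cytokine (Lif), a protease (Mmp10) and a redox enzyme (Srxn1). Capitals mark the κB match in the windows of Nfkbia (29 bases before the start site) and Gch1 (10 bases before it) and the AP-1 match in the windows of Lif, Mmp10 and Srxn1. The windows lie at chr12:55492598-55492897 (minus strand), chr14:47189364-47189663 (minus strand), chr11:4257318-4257617 (plus strand), chr9:7502092-7502391 (plus strand) and chr2:152105274-152105573 (plus strand).
Nfkbia: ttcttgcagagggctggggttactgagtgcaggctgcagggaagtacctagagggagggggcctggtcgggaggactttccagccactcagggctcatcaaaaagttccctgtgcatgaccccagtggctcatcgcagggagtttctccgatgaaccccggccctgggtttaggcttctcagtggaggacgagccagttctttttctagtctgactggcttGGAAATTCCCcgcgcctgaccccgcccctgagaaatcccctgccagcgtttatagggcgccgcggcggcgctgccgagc
Gch1: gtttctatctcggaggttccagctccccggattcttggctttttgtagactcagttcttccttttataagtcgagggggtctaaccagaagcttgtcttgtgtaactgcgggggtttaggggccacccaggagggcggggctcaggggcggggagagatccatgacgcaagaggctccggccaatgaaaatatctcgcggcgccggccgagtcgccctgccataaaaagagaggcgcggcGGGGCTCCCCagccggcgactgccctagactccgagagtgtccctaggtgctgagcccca
Lif: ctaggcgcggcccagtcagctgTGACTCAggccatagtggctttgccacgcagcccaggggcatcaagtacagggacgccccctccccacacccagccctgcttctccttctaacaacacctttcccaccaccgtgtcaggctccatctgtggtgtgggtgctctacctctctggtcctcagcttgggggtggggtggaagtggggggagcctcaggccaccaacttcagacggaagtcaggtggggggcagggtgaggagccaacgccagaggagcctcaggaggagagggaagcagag
Mmp10: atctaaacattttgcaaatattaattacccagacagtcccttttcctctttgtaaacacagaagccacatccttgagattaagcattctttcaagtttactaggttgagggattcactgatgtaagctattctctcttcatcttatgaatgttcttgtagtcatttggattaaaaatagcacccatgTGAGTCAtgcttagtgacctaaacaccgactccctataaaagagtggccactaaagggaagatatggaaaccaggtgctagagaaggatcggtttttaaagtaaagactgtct
Srxn1: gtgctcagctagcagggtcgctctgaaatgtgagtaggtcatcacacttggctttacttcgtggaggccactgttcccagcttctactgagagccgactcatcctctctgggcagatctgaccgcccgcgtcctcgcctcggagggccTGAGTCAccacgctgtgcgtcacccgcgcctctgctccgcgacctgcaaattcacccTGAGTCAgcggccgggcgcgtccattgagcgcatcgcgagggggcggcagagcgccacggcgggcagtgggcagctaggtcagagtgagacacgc

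Of 16 members that are subunits, inhibitors or regulators of NFκB, 6 rose (37.5%) and 1 fell (6.25%). Over all members 8.68% rose and 12.6% fell, the shares to hold beside every list count below. Nfkbia, which encodes IκBα and is itself induced by NFκB, read 9.90 and 9.93 without and 12.24 and 11.88 with TNF, a 4.41-fold rise (adjusted p = 0.00013). Nfkbie, the gene of IκBε, rose from 7.71 and 7.41 to 9.56 and 9.13 (log2 change 1.78 ± 0.20, adjusted p = 0.000567). Relb, whose product is the transactivating NFκB subunit these cells keep besides cRel, rose from 8.22 and 7.88 to 9.46 and 9.16 (log2 change 1.26 ± 0.25, adjusted p = 0.00891), a call lost without TNF replicate 1 (adjusted p = 0.0683). Map3k14, the NIK kinase of the non-canonical pathway, rose by 1.33 ± 0.18 (adjusted p = 0.00132), and Nfkbiz, the nuclear inhibitor IκBζ, fell by 0.96 ± 0.17 (adjusted p = 0.00459). Tnfaip3, the gene of the deubiquitinating enzyme A20, rose by 1.43 ± 0.41 (adjusted p = 0.0412), but its call was lost in 9 of the 12 fits with 1 array left out. Without TNF replicate 1, 3 of the group rose. The group's median change was 0.23, and -0.17 after scaling to the array median, when 4 rose and 2 fell. The cRel gene, Rel, failed the detection filter and was not tested.

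Receptors and adaptors of the TNF superfamily moved both ways. Of 15 members, 2 rose and 3 fell, with a median of -0.10 and 5 falls under the replicate block. Traf1, an adaptor of the TNF receptor complexes that is also counted with the survival genes, was not above background without TNF (5.00 and 5.03) and read 7.82 and 7.43 with it. It rose at least 3.60-fold (adjusted p = 4.94e-05). Tnfrsf12a, the TWEAK receptor, rose by 1.22 ± 0.20 (adjusted p = 0.00329). Cd40, a co-stimulatory receptor, read 7.25 and 6.24 before and fell to 5.09 and 5.02, below background, at least 1.69-fold (adjusted p = 0.0145). With no detection filter another Cd40 probe, which had failed the filter, stood for the gene. The log2 change of that probe was 0.067 instead of -1.69. Tnfrsf11b, the decoy receptor osteoprotegerin, fell by 0.87 ± 0.21 (adjusted p = 0.0225), and 0 of the 3 falls of the group, Cd40 included, were called without untreated replicate 1, TNF replicate 1 or TNF replicate 2. Tnfrsf1a, the main TNF receptor, read 7.90 and 7.49 without and 7.50 and 6.78 with TNF, so the groups overlapped (adjusted p = 0.209, and 0.027 with the replicate block).

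Chemokines and cytokines held some of the largest changes in either direction. Of 11 chemokines, 5 rose and 2 fell, with a median change of 1.09, and 8 rose with the replicate block. Ccl2, which attracts monocytes, went from 9.23 and 9.67 to 12.53 and 12.73, a 9.07-fold rise (adjusted p = 8.28e-05). Ccl5 went from 8.47 and 9.88 to 11.95 and 12.45 (log2 change 3.02 ± 0.43, adjusted p = 0.00183), its untreated arrays lying more than 1 log2 unit apart. Cxcl16, a membrane-bound chemokine, rose from 5.89 and 5.48 to 8.83 and 8.62 (log2 change 3.05 ± 0.24, adjusted p = 0.000104), with only 1 of the 2 untreated arrays above background, and Ccl9 rose by 2.49. In the opposite direction, the falls were in the neutrophil chemoattractant Cxcl5 and, named after its value was seen, the stromal chemokine Cxcl12, which fell by 0.57 ± 0.16 (adjusted p = 0.039). Ppbp, a platelet chemokine gene outside the list but among the 20 largest falls, fell by 2.80. Cxcl5 read 8.43 and 10.03 without and 6.21 and 7.32 with TNF (adjusted p = 0.00853), and lost its call without TNF replicate 1 (adjusted p = 0.065), when 0 chemokines of the list fell. Cxcl10, an interferon-inducible chemokine, read 7.32 and 6.21 without and 8.32 and 7.01 with TNF. The groups overlapped and it did not pass (adjusted p = 0.177), though it did with the replicate block (adjusted p = 0.0039). Of 11 cytokines and colony-stimulating factors 4 rose and 4 fell, with 2 falls called without untreated replicate 1 or TNF replicate 1. Only 5 of the 11 were above background on all 4 arrays, of which 2 rose and 2 fell. Besides Csf2 and Lif on the rising side, Il1rn, the interleukin-1 receptor antagonist, fell at least 8.75-fold, from 9.49 and 8.75 to signals below background (adjusted p = 0.000217). Il15, a growth factor of natural killer and T cells, fell by 1.72 ± 0.25 (adjusted p = 0.00199).

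Genes of cell adhesion and of matrix breakdown changed in both directions. Of 10 leukocyte adhesion molecules, 4 rose and 2 fell, but no rise was called without TNF replicate 1 and 1 after scaling to the array median. Of the 8 adhesion molecules above background on all 4 arrays, 3 rose and 1 fell. Vcam1, a ligand of leukocyte integrins, rose from 12.65 and 12.54 to 13.46 and 13.27 (log2 change 0.77 ± 0.15, adjusted p = 0.0081). Selp, the gene of P-selectin, read 8.68 and 7.69 without TNF and was not above background with it (5.01 and 5.09), a fall of at least 4.57-fold (adjusted p = 0.000183). F11r, a junctional adhesion molecule, fell by 1.78 ± 0.21 (adjusted p = 0.000809). Of 17 matrix proteases and inhibitors, 6 rose and 4 fell, with 2 falls called without untreated replicate 1, TNF replicate 1 or TNF replicate 2. Beside Mmp10, the gelatinase gene Mmp9 went from 8.37 and 8.31 to 11.40 and 11.58 (log2 change 3.15 ± 0.45, adjusted p = 0.0018), and Plaur, the urokinase receptor, rose by 2.06 ± 0.33 (adjusted p = 0.00327). Adamts5, an aggrecanase, went from 11.45 and 10.92 down to 7.19 and 6.68 (log2 change -4.25 ± 0.27, adjusted p = 2.96e-05). Mmp13, a collagenase, fell from 12.13 and 12.48 to 11.04 and 10.50 (adjusted p = 0.0407), and lost its call in 8 of the 12 fits with 1 array left out.

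Genes of MAP kinase feedback and of the immediate early class were read next. Feedback genes encode phosphatases and scaffold inhibitors that growth-factor signalling induces against itself. Of 14 such genes, 8 rose and 0 fell (10 and 0 at an unadjusted p under 0.05, limma), with a median of 0.82. The count was 4 without TNF replicate 1 and 4 after scaling to the array median. Errfi1, an inhibitor of the EGF receptor, went from 12.25 and 12.15 to 14.25 and 14.25, a 4.13-fold rise (adjusted p = 0.000104). Dusp4, a nuclear MAP kinase phosphatase, went from 7.60 and 7.16 to 9.51 and 9.34, a 4.12-fold rise (adjusted p = 0.00052). Phlda1 rose by 1.37 ± 0.20 and Dusp6, a phosphatase for ERK, by 0.91 ± 0.15, while Dusp1 read 11.86 and 11.92 without and 11.84 and 11.85 with TNF (adjusted p = 0.908). Of 19 immediate early genes, 6 rose and 2 fell, with a median of 0.25 that became -0.04 after scaling to the array median. The AP-1 subunit Jun rose from 9.94 and 10.10 to 11.47 and 11.21 (log2 change 1.33 ± 0.17, adjusted p = 0.00116). Fosl1, the AP-1 subunit Fra-1, rose by 2.10 ± 0.30 (adjusted p = 0.0019) and Myc, a driver of growth and ribosome synthesis, by 1.69 ± 0.19 (adjusted p = 0.000617). Fos, by contrast, fell from 8.74 and 8.54 to 6.34 and 7.28 (adjusted p = 0.019), a call lost without untreated replicate 1 (adjusted p = 0.0788) or TNF replicate 1 (adjusted p = 0.133). Klf2 fell by 1.32 ± 0.16 (adjusted p = 0.000843).

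The oxidative and metal stress genes include many targets of the factor NRF2. Of 17 members, 7 rose and 0 fell (1 fell at an unadjusted p under 0.05), with a median of 0.59, and the counts of rises lay at 6 or 7 when any Rela-/-Nfkb2-/- array was left out. After scaling to the array median 6 rose and 1 fell. Hmox1, heme oxygenase 1, went from 10.89 and 11.43 to 13.63 and 13.51, a 5.34-fold rise (adjusted p = 0.00046). Srxn1, which repairs oxidised peroxiredoxins, went from 11.00 and 10.92 to 13.44 and 13.29, a 5.29-fold rise (adjusted p = 8.01e-05). Gclm, a subunit of the enzyme that limits glutathione synthesis, went from 9.36 and 10.37 to 11.98 and 12.31, and Txnrd1, thioredoxin reductase, from 7.21 and 7.57 to 9.45 and 10.09. The log2 changes were 2.28 ± 0.33 and 2.38 ± 0.39. With Slc7a11 above, these genes span cystine uptake, glutathione synthesis and thioredoxin recycling. Gstm1, a glutathione transferase, read 11.60 and 12.04 without and 10.79 and 11.09 with TNF (adjusted p = 0.0871, and 0.021 with the replicate block).

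Genes of ribosome assembly were the next group with rises. Of 34 ribosome biogenesis genes, whose products process ribosomal RNA and assemble subunits in the nucleolus, 19 rose and 0 fell at either threshold (24 rose at an unadjusted p under 0.05, limma). The median change was 0.99. Rrp9, a component of the U3 particle, went from 8.52 and 8.12 to 10.72 and 10.55, a 4.98-fold rise (adjusted p = 0.000127). Rrp12 went from 9.51 and 8.82 to 11.36 and 11.41 (log2 change 2.22 ± 0.27, adjusted p = 0.000849). Nop56, of the box C/D particles that guide RNA methylation, went from 10.34 and 10.10 to 12.16 and 11.94 (log2 change 1.83 ± 0.25, adjusted p = 0.00155), and the RNA methyltransferase gene Nop2 rose by 1.61 ± 0.22. Npm1, an abundant nucleolar chaperone, marked the other end with 14.56 and 14.25 without and 14.35 and 14.44 with TNF (adjusted p = 0.969). The size of this count depended on single arrays, with 10 rises without TNF replicate 1, 10 without TNF replicate 2 and 15 without untreated replicate 2, while 6 rose, with a median of 0.60, after scaling to the array median. Of the ribosomal proteins themselves, which are made from some of the most abundant transcripts, 0 of 33 passed in either direction (2 rose and 0 fell at an unadjusted p under 0.05, limma), with a median of 0.10. Of 27 proteasome genes 4 rose and 0 fell (10 and 0 unadjusted, 9 and 0 with the replicate block), Psmd8 most clearly, from 10.59 and 10.20 to 11.95 and 11.92 (log2 change 1.54 ± 0.18, adjusted p = 0.000719). Of 19 tRNA synthetase genes 5 rose and 0 fell, with Rars higher by 1.09 ± 0.16 (adjusted p = 0.00214). After scaling to the array median 1 proteasome and 0 synthetase genes rose, with medians of 0.06 and 0.08, and 1 of each rose without TNF replicate 1. The synthetase count was 1 or 2 without any given WT array.

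**Figure D4:**
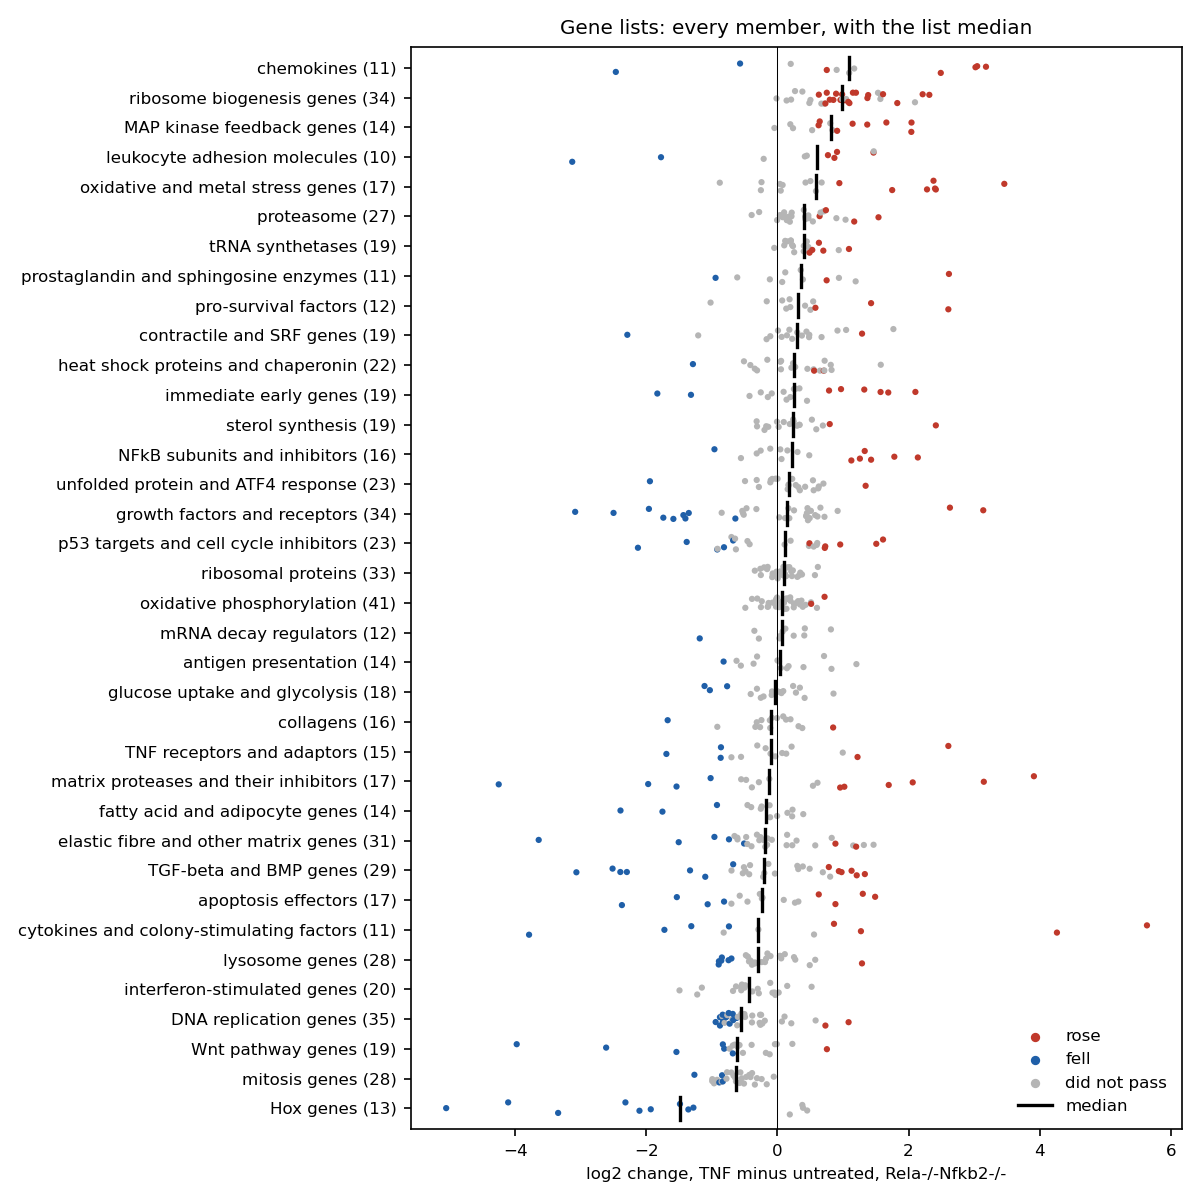
Log2 change (TNF minus untreated) of every member of 36 gene lists in Rela-/-Nfkb2-/- cells, ordered by the list median (black bar), with the number of members in brackets. Red points rose, blue points fell and grey points did not pass. Chemokines (median 1.09) and ribosome biogenesis genes (0.99) stand at the top, and mitosis (-0.64) and Hox genes (-1.49) at the bottom.

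Genes of survival, death and the p53 pathway were mixed. Of 12 pro-survival factors, 3 rose (Traf1, Tnfaip3 and Gadd45b) and 0 fell (1 fell at an unadjusted p under 0.05), against 5 rises with the replicate block. Scaling to the array median left 1 rise and 1 fall, and the 4 arrays alone gave 1 rise and 0 falls. The calls of Tnfaip3 and Gadd45b, but not that of Traf1, were lost when some single arrays were left out. Bcl2 read 9.00 and 8.32 without and 7.62 and 7.66 with TNF (adjusted p = 0.0608, and 0.016 with the replicate block). Of 17 apoptosis effectors, 4 rose and 4 fell, and 1 and 3 did without TNF replicate 1. Of the 15 effectors above background on all 4 arrays, 4 rose and 2 fell. Pmaip1, the BH3-only protein NOXA, rose from 8.31 and 8.38 to 9.60 and 10.07 (log2 change 1.49 ± 0.23, adjusted p = 0.00237). Bmf, another BH3-only gene, read 8.33 and 7.60 without TNF and fell at least 3.93-fold, to signals below background (adjusted p = 0.000258), and Casp12 fell at least 2.78-fold (adjusted p = 0.000382). Of 23 p53 targets and cell cycle inhibitors, 6 rose and 5 fell. Aen, a p53-induced nuclease above background on 1 of the 2 untreated arrays, rose by 1.61 ± 0.24, while Cdkn1c, the inhibitor p57, and Sesn1, a stress-response gene, fell by 2.13 ± 0.36 and 1.38 ± 0.18. Without TNF replicate 1 the p53 group counted 1 rise and 3 falls. After scaling to the array median it counted 2 rises and 6 falls and its median went from 0.11 to -0.18.

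The largest falls included patterning genes, secreted matrix proteins and developmental signals. Hoxd10 went from 12.32 and 11.36 to 6.65 and 6.93, a 33.2-fold fall (adjusted p = 1.39e-05). Smoc1, a matricellular modulator of BMP signalling, went from 11.20 and 10.90 to 6.36 and 5.98, a 29.4-fold fall (adjusted p = 1.07e-05). Rspo3, which potentiates Wnt signalling, went from 11.13 and 10.97 to 7.19 and 6.96, a 15.7-fold fall (adjusted p = 2.96e-05). The untreated signals of all 3 lay above the median of the fallen members (10.28), and the groups were far apart. Rasl11a, a small GTPase, fell by 4.23, Ppp1r3c, a glycogen-targeting phosphatase subunit, fell by 3.78, Ccn5, a matricellular CCN protein, fell by 3.76, and Deptor, an inhibitor of mTOR, fell by 3.38 on the log2 scale. Scx, the tendon transcription factor scleraxis, read 9.53 and 9.65 without and 6.52 and 6.54 with TNF (log2 change -3.06 ± 0.16, adjusted p = 1.38e-05). Among genes no longer above background with TNF, Slc5a7, the choline transporter, fell at least 13.5-fold, from 9.95 and 9.55 (adjusted p = 1.14e-06). Kcnab1, a potassium channel subunit, fell at least 14.8-fold, Plin4, a lipid droplet protein, at least 13.3-fold, and Crabp2, a retinoic acid carrier, at least 12.9-fold.

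Hox genes, the homeobox factors that record position along the body axis and the limb, fell beyond Hoxd10. Of 13 members, 9 fell and 0 rose (1 rose at an unadjusted p under 0.05), with a median of -1.49. That median rests on genes that entered through the untreated group alone, since the 5 Hox genes above background on all 4 arrays had a median of 0.38, with 2 falls (Hoxd10 and Hoxd13). Hoxd12 read 9.07 and 9.13 without TNF and 4.92 and 5.07 with it, at least 8.62-fold lower (adjusted p = 1.02e-06). Hoxa5 read 8.86 and 7.86 without and 5.01 and 5.02 with TNF, at least 5.17-fold lower (adjusted p = 0.000171), and Hoxd8 fell at least 2.35-fold. The remaining falls, named here after their values were seen, were Hoxa7, Hoxa9, Hoxa11, Hoxd9 and Hoxd13. Hoxa13 read 7.99 and 7.92 without and 8.54 and 8.28 with TNF (adjusted p = 0.0824, and 0.042 with the replicate block). The falls other than Hoxd10 and Hoxd13 were in genes no longer detected with TNF, which had to differ and give the count no support of their own. Fitting the 4 arrays alone called 6 falls. Of these 13 genes, 0 were called in the other genotypes (limma, same threshold), but Hoxa9, Hoxa11, Hoxd8, Hoxd9, Hoxd10 and Hoxd12 were above background on no WT and no Rela-/-Relb-/-Rel-/- array, so their response could not be measured there.

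**Figure D5:**
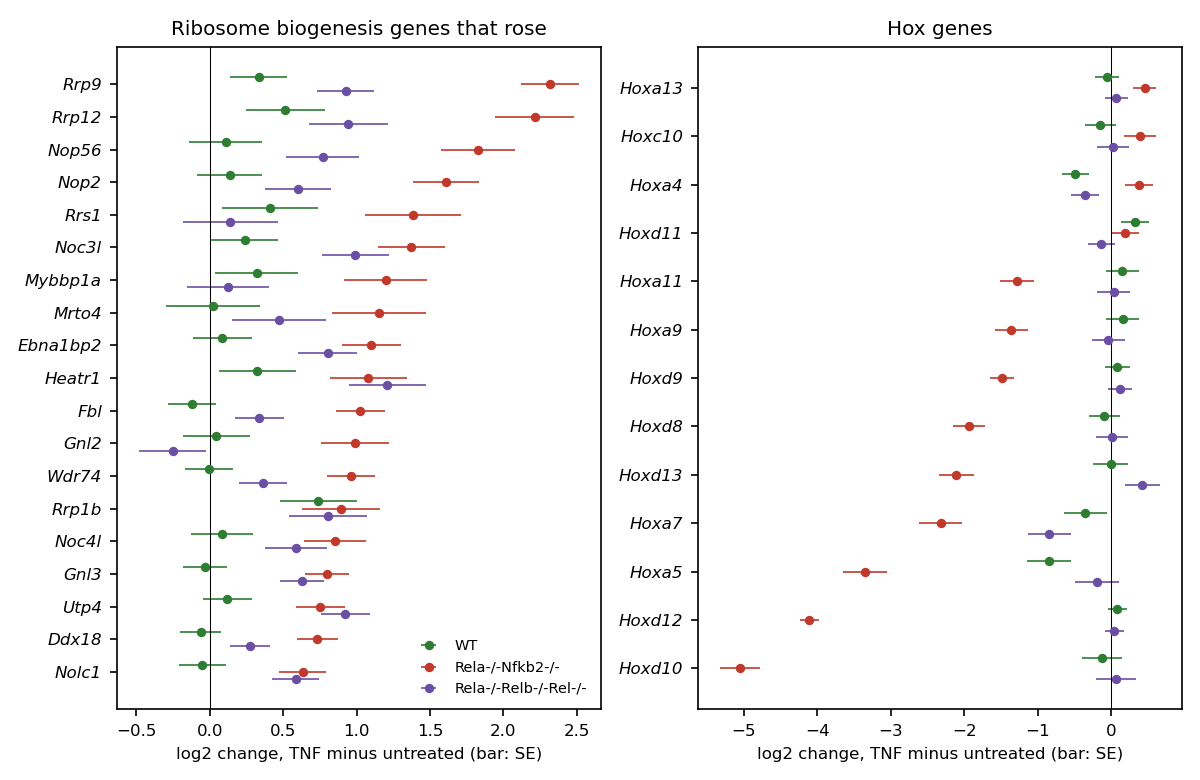
Log2 change (TNF minus untreated, horizontal axis) with its SE in WT (green), Rela-/-Nfkb2-/- (red) and Rela-/-Relb-/-Rel-/- (violet) cells for the 19 ribosome biogenesis genes that rose in Rela-/-Nfkb2-/- cells (left) and the 13 Hox genes (right). The left panel was chosen on the red points, which lie above 0 for that reason, and 9 of the 13 Hox genes lie below -1 in red only, with 6 of these not above background in the other genotypes.

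BMP, Wnt and growth factor genes, the signals through which mesenchymal cells pattern tissue, included falls of several named genes. Of 29 genes of the TGF-β and BMP pathways, 6 rose and 7 fell, with 1 rise and 8 falls after scaling to the array median and 2 rises without TNF replicate 1 and 3 without untreated replicate 1. Bmp4 went from 10.46 and 10.90 to 7.82 and 7.41, an 8.37-fold fall (adjusted p = 3.41e-05). Tgfbi, a TGF-β-induced matrix protein, went from 12.49 and 12.95 to 10.37 and 10.28 (log2 change -2.40 ± 0.25, adjusted p = 0.000351). Smad6, an inhibitor that BMP signalling induces, fell by 2.30 ± 0.20 and Eng, the co-receptor endoglin, by 2.51 ± 0.31, with 1 of the 2 TNF arrays above background for Eng. Tgfb1 rose from 6.39 and 7.01 to 8.31 and 7.75 (adjusted p = 0.0188), a call lost in 2 of the 12 fits with 1 array left out. Of 19 Wnt pathway genes, 1 rose and 6 fell, with a median of -0.61, with 2 falls called without TNF replicate 2 and 10 with the replicate block. Besides Rspo3, Sfrp2, a secreted Wnt modulator, fell by 2.61 ± 0.50 (adjusted p = 0.0077), a call lost in 1 of the 12 fits, with 1 of the 2 TNF arrays above background. Of 34 growth factors and receptors, 2 rose (Hbegf and Pdgfb) and 9 fell, though the median was 0.14, and -0.20 after scaling to the array median. With the replicate block 5 rose and 13 fell. Fgf10, a mesenchymal signal to epithelium, went from 10.03 and 9.62 to 7.39 and 7.27 (log2 change -2.50 ± 0.21, adjusted p = 0.000127). Angpt1, the vessel-stabilising ligand angiopoietin 1, fell at least 4.50-fold to signals below background (adjusted p = 1.07e-05), and Pdgfrb, the receptor of PDGF-B, fell from 9.95 and 10.36 to 8.82 and 8.69 (adjusted p = 0.00164).

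Matrix and metabolic genes were counted in the same way. Of 31 genes of elastic fibres and other matrix, 2 rose (6.45%) and 5 fell (16.1%), near the 8.68% and 12.6% of all members. Under the replicate block 6 rose and 7 fell, and 3 fell without untreated replicate 1, TNF replicate 1 or TNF replicate 2. Fmod, the collagen-binding proteoglycan fibromodulin, fell at least 10.6-fold, from 9.38 and 9.41 (adjusted p = 1.33e-05), Fbln1 fell by 1.51 ± 0.20, and Tnc, the injury-associated glycoprotein tenascin C, rose by 1.20 ± 0.22 (adjusted p = 0.00666). Of 16 collagens 1 rose and 1 fell, a share near that of all members. Of 14 fatty acid and adipocyte genes 0 rose at either threshold (limma) and 3 fell, with 1 fall called without either TNF array. Lpl, lipoprotein lipase, went from 13.27 and 12.91 to 10.78 and 10.62 (log2 change -2.39 ± 0.32, adjusted p = 0.00142), and Pparg, the adipocyte master regulator, fell by 1.75 ± 0.37 (adjusted p = 0.0121), a call lost in 3 of the 12 fits with 1 array left out. Of 18 genes of glucose uptake and glycolysis 3 fell (16.7%, near the share of all members), and 1 fell without either TNF array. Among the 3 was the glucose transporter gene Slc2a3, which fell by 1.11 ± 0.19 (adjusted p = 0.0042). Of 28 lysosome genes 1 rose and 6 fell, Man2b1, an acid mannosidase, by 0.90 ± 0.13 (adjusted p = 0.00217), with 3 falls called without untreated replicate 1 or TNF replicate 1 and 2 without TNF replicate 2.

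Cell cycle genes had small changes per gene. Of 35 DNA replication genes, 11 fell and 2 rose, with a median of -0.55. The replicative helicase subunit gene Mcm4 fell from 13.52 and 13.23 to 12.59 and 12.50 (log2 change -0.83 ± 0.18, adjusted p = 0.0138), and Mcm4 and Pold1 each lost their calls in 3 of the 12 fits. Pold1, of DNA polymerase δ, fell by 0.88 ± 0.20, and Ccne1, the cyclin of S-phase entry, rose from 6.95 and 7.02 to 8.04 and 8.11 (log2 change 1.09 ± 0.14, adjusted p = 0.00107). The count of replication falls was 1 without TNF replicate 1, 1 without TNF replicate 2, 3 without untreated replicate 1, 5 without any given WT array and 0 in the 4 arrays alone. All 28 mitosis genes had a change below 0 (median -0.64), of which 4 passed, 16 at an unadjusted p under 0.05 and 15 with the replicate block. The 4 are 14.3% of the list, near the 12.6% of all members that fell. Their count was 8 without untreated replicate 2, 2 without untreated replicate 1 or TNF replicate 1, and 1 without TNF replicate 2. Ndc80, a kinetochore protein gene, fell from 10.35 and 10.09 to 8.93 and 8.98 (log2 change -1.27 ± 0.21, adjusted p = 0.00355). The mitosis genes had a median of -0.20 in WT MEFs and of -0.56 in the Rela-/-Relb-/-Rel-/- MEFs.

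Interferon-stimulated genes were not called. Of 20 members, 0 rose and 0 fell by limma, 0 and 5 at an unadjusted p under 0.05 and 0 and 5 with the replicate block, with a median of -0.44, while 3 rose in WT cells. Usp18, an inhibitor of interferon signalling, read 11.63 and 10.32 without and 10.51 and 8.45 with TNF, and the groups overlapped (adjusted p = 0.127, and 0.0028 with the block). Irf1, which both interferon and NFκB induce, read 12.49 and 12.00 without and 11.78 and 11.72 with TNF (adjusted p = 0.124). After scaling to the array median 3 fell, and 4 fell without untreated replicate 2.

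More features passed the threshold here than in the other genotypes. In WT cells 86 of the 10031 features rose (0.857%) and 34 fell (0.339%), and in Rela-/-Relb-/-Rel-/- cells 139 rose (1.39%) and 80 fell (0.798%). Over all 10031 features the log2 changes had an SD of 0.74 here, against 0.40 for WT and 0.44 for Rela-/-Relb-/-Rel-/- cells. The genotypes share no arrays, although the fit estimates one spread for all. The difference between the responses was tested directly. Compared with WT, the log2 change was higher in Rela-/-Nfkb2-/- cells for 110 members (1.19%) and lower for 280 (3.04%). Compared with Rela-/-Relb-/-Rel-/- cells it was higher for 119 (1.29%) and lower for 352 (3.82%). Of the 799 risen members, 39 also rose in WT cells, which is 45.3% of the WT rises, and 56 in Rela-/-Relb-/-Rel-/- cells, or 40.3% of the rises there. None of the 799 fell in either genotype by limma (8 and 16 at an unadjusted p under 0.05). Of the 1158 fallen members, 17 also fell and 4 rose in WT cells, and 39 fell and 11 rose in Rela-/-Relb-/-Rel-/- cells. The risen members changed by a median of 0.15 in WT MEFs and of 0.23 in the Rela-/-Relb-/-Rel-/- MEFs, and the fallen members by -0.24 and -0.19. Of the falls, 84 were in genes above background on no array of either other genotype.

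Single genes separated the genotypes in different ways. Ccl2, Gch1, Itga2, Ptgs2, Rgs16 and Serpinb2 rose in all 3 genotypes, and Scx fell in all 3. Nfkbia rose by 1.81 in WT cells and had a change of -0.57 in Rela-/-Relb-/-Rel-/- cells, from which the Rela-/-Nfkb2-/- response differed by 2.71 (adjusted p = 0.00092). Sema7a changed by 0.28 in WT cells, from which the response differed by 5.02, and rose by 1.82 in Rela-/-Relb-/-Rel-/- cells. Hbegf rose by 1.90 in Rela-/-Relb-/-Rel-/- cells and changed by 0.14 in WT cells, where the difference was 2.49 (adjusted p = 0.0013). Mmp13 rose by 4.71 and Selp by 1.62 in WT cells, against falls in Rela-/-Nfkb2-/- cells, and both differences passed (-6.25 and -4.75), that of Selp with neither Rela-/-Nfkb2-/- TNF array above background. Fos rose by 2.38 in Rela-/-Relb-/-Rel-/- cells, opposite in sign to its fall here. Of the MAP kinase feedback genes 6 of 14 rose in Rela-/-Relb-/-Rel-/- and 0 in WT cells (limma), with medians of 1.06 and 0.08. Of the ribosome biogenesis genes 1 and 0 rose there, with medians of 0.59 and 0.08, and the response was higher than in WT for 5 and than in Rela-/-Relb-/-Rel-/- cells for 1 of the 34.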

How the data were processed

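Total RNA of mouse embryonic fibroblasts (12 samples) was labelled in 1 colour and hybridised to MouseRef-8 v2.0 BeadChips (Illumina). The authors deposited, per probe and array, the mean bead intensity without normalisation and a detection p-value (GenomeStudio output, version not given in the sources used here). A second deposited table holds an intensity that a service company had background-subtracted and quantile-normalised, used here as an alternative only. Quantile normalisation removes a shift common to most genes.

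In R 4.3.3 with limma 3.58.1, neqc modelled background through those detection p-values, with an offset of 16, then quantile-normalised and took log2. Probes with a detection p-value under 0.05 on both arrays of any group were kept (13387 of 25697), and the brightest probe stood for each gene, leaving 10031 features. Of 2195 genes with several detected probes, 0 had probes called in opposite directions. The linear model gave each of the 6 groups its own mean over the 12 arrays (lmFit, eBayes, 6 residual and 2.92 prior degrees of freedom), with Benjamini-Hochberg adjustment over the 10031 features and a threshold of 0.05. Precision is limited by the number of arrays, and the median SE of a log2 change was 0.23. The code was tested on simulated data.

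The samples were grouped by the titles in the labels. The members, the 36 gene lists and 6 marker lists were chosen with earlier results of these data known, and a list is described by its counts and median beside those of all members. Genes were named by rule: the 20 largest rises and 20 largest falls that passed among members detected on all 4 arrays with both numbered pairs of one sign, the 10 largest of each detected in 1 group only, the 4 smallest p-values and both ends of each list, the 5 largest differences each way from the other genotypes, and genes the study names. A lower bound of a fold change sets the brighter group's mean against, per array of the other group, the higher of the probe's signal and the lowest signal above background.

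Whether replicate numbers pair the arrays was checked. Same-numbered untreated and TNF arrays deviated from their group means together, with correlations of 0.67 for Rela-/-Nfkb2-/-, 0.70 for Rela-/-Relb-/-Rel-/- and 0.31 for WT cells. Same-numbered arrays of the different mutant genotypes correlated by 0.62 to 0.85, but those of WT and mutant cells only by -0.185 to 0.002. The sharing thus spanned both mutant genotypes but not WT, and it comes from the data, not from the labels. Values with the replicate number as a block are given where they change the call of a gene described as not passing or move a count over 1.5 times. The alternatives were other normalisations, filters and offsets, the deposited values, other fits, the t-test that the methods name for comparing groups and leaving out each array. Promoter windows came from a RefSeq table. Of genes that the study names, Birc3, Cflar, Irf4 and Rel failed the filter, Chuk, Mapk3, Nfkb1 and Traf3 were not analysed here, and 1 more is not reported here.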

Additional observations from a re-analysis of the deposited data

Results flagged for a closer look

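The TNF response of Rela-/-Nfkb2-/- cells differed from that of WT cells by the test of the difference itself for 110 members that were higher and 280 that were lower, and from that of Rela-/-Relb-/-Rel-/- cells for 119 and 352. All differences here are log2 changes in Rela-/-Nfkb2-/- cells minus those in the other genotype. By fitted value, positive differences from WT were headed by Sema7a (5.02), Fam110c (2.70), Wfdc18 (2.68), the homeobox gene Meox1 (2.66) and Glyat (2.53). Negative differences from WT were headed by Mmp13 (-6.25), Rspo3 (-5.09), Hoxd10 (-4.93), Selp (-4.75) and Slc5a7 (-4.73). Wfdc18, Glyat, Hoxd10 and Slc5a7 were above background on none of the WT arrays, and Selp and Slc5a7 on none of the Rela-/-Nfkb2-/- TNF arrays, so the sizes and order of these differences rest in part on background signals.

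From Rela-/-Relb-/-Rel-/- cells, the differences by fitted value were headed on the positive side by Csf2 (5.34), Lif (3.74), Sema7a (3.47), Mmp10 (3.33) and Acpp (3.09), and on the negative side by Lmcd1 (-6.26), Chst1 (-5.67), Hoxd10 (-5.11), Smoc1 (-4.77) and Slc5a7 (-4.75). Csf2, Acpp, Hoxd10, Smoc1 and Slc5a7 were above background on none of the Rela-/-Relb-/-Rel-/- arrays, and Lmcd1 and Slc5a7 on none and Chst1 on 1 of the 2 Rela-/-Nfkb2-/- TNF arrays, so these sizes and their order are not exact either. Lmcd1, a LIM-domain cofactor, and Chst1, a keratan sulphate sulphotransferase, moved in opposite directions in the 2 mutants. Lmcd1 read 8.82 and 8.33 without and 5.96 and 5.56 with TNF in Rela-/-Nfkb2-/- cells and rose by 3.45 in Rela-/-Relb-/-Rel-/- cells. Chst1 read 9.56 and 9.86 without and 5.46 and 6.15 with TNF, and rose by 1.78 there.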

How the results depend on the processing

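Counts are of members. Scaling to the array median gave 206 rises, 21 higher and 176 lower responses than in WT, and 32 higher than in Rela-/-Relb-/-Rel-/- cells. Requiring detection on all 4 arrays gave 71 higher and 131 lower than WT, and 63 and 164 against Rela-/-Relb-/-Rel-/- cells. The 4 arrays alone gave 84 rises and 251 falls, and the 8 mutant arrays 422 and 740, with 39 higher and 139 lower than in Rela-/-Relb-/-Rel-/- cells. Array weights gave 481 rises, and 48 higher and 220 lower than in Rela-/-Relb-/-Rel-/- cells. The replicate block gave 1512 rises and 1758 falls, 385 higher and 604 lower than WT, and 356 and 693 against Rela-/-Relb-/-Rel-/- cells. The block with scaling to the array median, chosen after seeing the data, gave 326 rises and 1836 falls, 64 higher than WT and 63 higher than Rela-/-Relb-/-Rel-/- cells. The t-test that the methods name for comparing groups gave 716 rises and 965 falls at an unadjusted p under 0.05 and 0 and 0 after adjustment. For these arrays the study instead used a fold threshold, a detection p-value and a signal-to-noise ratio in WT cells, followed by clustering. Leaving out 1 array gave 282 to 872 rises and 595 to 1286 falls. It gave 21 to 119 higher and 91 to 321 lower than WT, lowest without WT TNF replicate 2, and 36 to 167 higher and 139 to 513 lower than Rela-/-Relb-/-Rel-/- cells, lowest without Rela-/-Nfkb2-/- TNF replicate 1 and without Rela-/-Relb-/-Rel-/- untreated replicate 2. With no detection filter another Cd40 probe stood for the gene, with a change of 0.067 instead of -1.69. The other normalisations, offset, filters and the deposited values kept both counts of the response within 1.5 times. The causes were not tested. Probes near background allow only lower bounds of the fold change for the 83 members detected with TNF only and the 397 detected without it only.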

Other observations

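Groups not described above held few changes. Of 41 oxidative phosphorylation genes, 2 rose, Uqcrc1 by 0.72 and Cyc1 by 0.51 on the log2 scale, and 0 fell at either threshold (limma), with a median of 0.07. Of 19 sterol synthesis genes 2 rose, Ch25h, the 25-hydroxylase of cholesterol, from 7.91 and 7.65 to 10.11 and 10.29, and Srebf2, the regulator of the pathway, by 0.80. Of 22 heat shock and chaperonin genes, 2 rose and 1 fell, or 7 and 1 under the replicate block, the single fall being Hspa1a, an inducible heat shock protein gene, from 9.05 and 8.02 to 7.44 and 7.06. Of 23 genes of the unfolded protein and ATF4 responses, Hspa5, the chaperone BiP, rose by 1.35 and Slc7a3, an arginine transporter, fell by 1.94. Of 11 prostaglandin and sphingosine genes 2 rose and 1 fell, or 4 and 1 under the replicate block, Ptgs2, cyclooxygenase 2, going from 5.73 and 6.22 to 8.43 and 8.76 (log2 change 2.62 ± 0.30, 1 of the 2 untreated arrays above background) and Ugcg, glucosylceramide synthase, falling by 0.94. Of 19 contractile and SRF target genes, Ankrd1 rose by 1.29 and Mylk, myosin light chain kinase, fell by 2.29 (4 rises and 2 falls with the replicate block), and of 12 mRNA decay regulators Tob1 fell by 1.18. Of 14 antigen presentation genes, Tapbpl, a tapasin-related gene, fell by 0.82 and 0 rose (2 at an unadjusted p under 0.05, limma, and 3 with the replicate block). Uqcrc1, Cyc1, Srebf2, Hspa1a, Hspa5, Ankrd1, Mylk and Tapbpl lost their calls in 1 or more of the 12 fits with 1 array left out, Hspa5 in 7 of them, and Uqcrc1, Cyc1, Srebf2, Hspa5 and Ankrd1 after scaling to the array median. The replicate block also gave 2 falls in place of 1 for NFκB subunits and inhibitors and for collagens, 1 fall in place of 0 for pro-survival and for oxidative stress genes, 2 rises and 2 falls for the unfolded protein and ATF4 responses, and 1 rise for Hox genes, ribosomal proteins and mRNA decay regulators.

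Probes with no gene symbol changed as well, with 60 that rose and 81 that fell. Rises and falls were spread over the chromosomes, the share of rises among named members running from 4.07% on the X chromosome to 12.7% on chromosome 5 and that of falls from 7.59% on chromosome 7 to 18.5% on chromosome 17, with no test made.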
